A study of Mus musculus with 14 samples.

Results

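Described here are 10 genes of meiotic recombination, of the 24984 genes in the deposited tables: Spo11, Mei1, Mei4, Rec114, Ccdc36, Prdm9, Dmc1, Meiob, Spata22 and Tex15. They were taken by symbol, as genes whose products make, place or process the DNA breaks of meiosis, and the rule uses no measured value. Ccdc36 is the symbol in the tables for the gene now named Iho1. The RNA came from cells sorted for c-KIT, labelled differentiating spermatogonia, which stand between the stem cell pool and meiosis, from testes of C57BL/6J mice. In the deletion experiment, 2 control animals (Rosa26-CreERT2; Cbx2 Flox/+, injected with corn oil) were set against 2 deleted animals (Rosa26-CreERT2; Cbx2 Flox/Δ, given 3 injections of 200 µL tamoxifen at 20 mg/mL). The controls therefore differ from the deleted animals in genotype and in injection together, and both carry the recombinase. The Rosa26 driver is not limited to germ cells. In the 23KRA experiment, 5 untreated wild-type animals (Cbx2 +/+) were set against 5 untreated homozygotes (Cbx2 23KRA/23KRA), whose CBX2 protein carries lysine and arginine to alanine changes in its CaPS domain. The study asked which genes change with each alteration of Cbx2, whose protein is part of the Polycomb complex PRC1 and binds methylated histone H3. Ages of the animals were not given in the sources used here.

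In meiosis, cells cut their own DNA on purpose so that homologous chromosomes can find each other and cross over. SPO11 makes the double-strand break, on a platform built by MEI1, MEI4, REC114 and IHO1, at sites that PRDM9 marks with histone H3 methylation. The ends are then trimmed to single strands, which the recombinase DMC1 uses to search for the homolog, with MEIOB, SPATA22 and TEX15 needed for later steps or for its loading. The breaks themselves form after the spermatogonial stage, at the start of meiotic prophase. Many of the transcripts are made from around meiotic entry, but that timing need not hold for Tex15, which also acts in transposon silencing.

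All 10 genes were detected in all 14 libraries, and none passed the test in either comparison. A gene passed where its adjusted p from the quasi-likelihood fit of edgeR was under 0.05. In the deletion experiment, 2 of the 16725 genes tested passed, or 0.012%, and in the 23KRA experiment 0 of 14208, or 0%. At an unadjusted p under 0.05 there were 793 of the 16725 genes tested in the deletion experiment and 432 of the 14208 in 23KRA. Among them were 1 of the 10 genes in the deletion (Spo11) and 0 of the 10 in 23KRA. DESeq2 and limma-voom called 0 of the 10 in both experiments, and over all genes each called 1 in the deletion and 0 in 23KRA. Each library is taken as 1 animal, so the p-values measure variation among animals and among preparations without separating them.

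Total counts ran from 28169990 to 31166500 per library in the deletion experiment and from 14562564 to 19814511 in the 23KRA experiment, with 19822 to 19976 and 14958 to 17330 genes detected. Wild-type replicates 2 and 3 of the 23KRA experiment had the fewest, 14958 and 15258. Cbx2 itself stood at 93.9 to 97.7 CPM (read counts scaled by each library's adjusted total) in the controls and 78.5 to 86.5 CPM in the deleted libraries, and the log2 fold change, -0.21 with an SE of 0.12, did not pass (edgeR adjusted p = 0.971). Counts over the whole gene do not show how much intact transcript was left. In 23KRA, where coding bases are changed, the level of Cbx2 checks no label, and it was 53.2 to 83.6 CPM in wild-type and 48.8 to 89.7 CPM in homozygous libraries. Markers of the labelled cell type were present, with Kit at 203 to 271 CPM in the deletion and 232 to 303 CPM in the 23KRA libraries. Stra8, which drives meiotic entry, stood at 507 to 596 and 541 to 819 CPM.

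To show the regulatory sequence of the genes that hold motifs of known germline regulators, promoter windows from RefSeq on build GRCm38.p6 were searched. Each window runs from 250 bases before to 50 bases after an annotated start, and 7 of the 10 genes had 8 windows. Motifs searched on both strands were CACGTG, the E-box bound by MGA-MAX in a variant PRC1 complex, TCCCGC, bound by E2F factors such as E2F6, and CNCCTCAG, bound by STRA8. Over the 32544 distinct promoters in the table, CACGTG occurred in 7.17%, TCCCGC in 20.1% and CNCCTCAG in 7.99%. At least 1 of them was held by 4 of the 7 genes: Rec114, Prdm9, Dmc1 and Spata22. The windows follow 5′ to 3′ on the gene's strand, with each match in capitals, for Rec114 (chr9:58741510-58741809, minus strand), the upstream of the 2 Prdm9 windows (chr17:15564305-15564604, minus strand), Dmc1 (chr15:79605060-79605359, minus strand) and Spata22 (chr11:73329491-73329790, plus strand).
Rec114: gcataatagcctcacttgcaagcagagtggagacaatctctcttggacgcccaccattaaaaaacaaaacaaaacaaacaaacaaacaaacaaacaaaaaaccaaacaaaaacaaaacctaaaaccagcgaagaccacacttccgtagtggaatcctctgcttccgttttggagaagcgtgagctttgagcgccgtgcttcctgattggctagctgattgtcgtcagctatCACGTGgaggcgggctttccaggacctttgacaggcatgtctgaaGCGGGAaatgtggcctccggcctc
Prdm9: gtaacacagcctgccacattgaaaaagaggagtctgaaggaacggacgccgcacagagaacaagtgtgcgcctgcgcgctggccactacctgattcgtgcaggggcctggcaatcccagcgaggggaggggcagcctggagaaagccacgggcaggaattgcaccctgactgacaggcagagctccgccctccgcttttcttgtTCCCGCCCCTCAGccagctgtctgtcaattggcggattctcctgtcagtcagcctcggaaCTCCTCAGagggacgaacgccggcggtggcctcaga
Dmc1: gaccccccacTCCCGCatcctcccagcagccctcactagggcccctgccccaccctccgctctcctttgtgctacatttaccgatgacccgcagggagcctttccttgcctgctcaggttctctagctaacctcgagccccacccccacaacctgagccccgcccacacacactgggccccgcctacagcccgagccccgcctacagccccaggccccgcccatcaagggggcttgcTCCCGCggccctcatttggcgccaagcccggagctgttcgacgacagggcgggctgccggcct
Spata22: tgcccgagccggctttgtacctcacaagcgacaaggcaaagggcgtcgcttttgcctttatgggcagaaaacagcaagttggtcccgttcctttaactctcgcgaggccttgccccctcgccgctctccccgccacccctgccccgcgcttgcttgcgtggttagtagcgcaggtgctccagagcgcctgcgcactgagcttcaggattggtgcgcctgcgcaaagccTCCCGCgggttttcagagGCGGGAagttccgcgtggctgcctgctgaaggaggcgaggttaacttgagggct
With the first base of the transcript counted as 1 and no base 0, the Rec114 E-box began at -19 and its TCCCGC, read on the other strand, at 27. In Prdm9, TCCCGC began at -46 and overlapped by 1 base the CNCCTCAG match at -41, and the other CNCCTCAG match began at 15. In Dmc1, TCCCGC began at -240 and -13, and in Spata22 at -22 and -4, the second on the other strand. The downstream Prdm9 window (chr17:15563282-15563581) held TCCCGC at -230. The Mei1, Mei4 and Ccdc36 windows held none of these letters. The Mei1 window (chr15:82082226-82082525) lay inside the gene as placed below, which starts at 82069996. The Ccdc36 window (chr9:108431777-108432076) lay upstream of its gene model, which starts at 108428484. The Rec114 window lay inside its gene model, which starts at 58743964. The starts of the Mei1, Ccdc36 and Rec114 gene models were thus not searched. Spo11, Meiob and Tex15 had no entry. A match is a run of letters and not a measured site, and no binding was measured in these libraries.

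Spo11 (chr2:172977700-172993576, plus strand, GRCm38), the catalytic subunit of the break machinery, had the highest positive difference of the 10 genes in the deletion experiment. Its level was 46.6 and 51.8 CPM in the controls and 58.05 and 60.04 CPM in the deleted libraries. Both deleted libraries were above both controls. Its log2 fold change was 0.26 (SE 0.124, 95% interval 0.0077 to 0.52), with an unadjusted p of 0.0439 and an edgeR adjusted p of 0.971, so it did not pass. In the 23KRA experiment Spo11 was at 16.7, 18.9, 20.6, 16.1 and 19.2 CPM in wild-type replicates 1 to 5 and at 25.4, 23.0, 21.7, 15.5 and 16.9 CPM in the homozygotes. Of the 5 homozygotes, 3 were above every wild-type library and 1 was below them all. The log2 fold change was 0.16 (SE 0.198, 95% interval -0.25 to 0.58), and the interval holds 0.

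Mei4 (chr9:81863670-82206007, plus strand), which with REC114 forms the core of the break platform, was at 39.7 and 38.7 CPM in the controls and at 45.8 and 45.4 CPM in the deleted libraries. The groups did not overlap, and the log2 fold change was 0.22 (SE 0.127, 95% interval -0.043 to 0.48). Its 23KRA values were 14.8, 10.8, 23.5, 18.4 and 19.9 CPM in wild-type and 16.4, 26.0, 20.9, 20.4 and 17.8 CPM in homozygous libraries. The wild-type libraries spanned the lower end, with replicate 2 lowest and replicate 3 above 4 of the 5 homozygotes. The log2 fold change was again 0.22, with a wider error (SE 0.223, 95% interval -0.25 to 0.68).

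Rec114 (chr9:58652850-58743964, minus strand) was at 43.0 and 45.8 CPM in the controls and 51.2 and 40.7 CPM in the deleted libraries. One deleted library was above both controls and the other below, and the log2 fold change was 0.05 (SE 0.134). The 23KRA libraries held 21.6, 32.5, 18.8, 21.4 and 18.2 CPM in wild-type and 16.6, 22.0, 15.5, 25.6 and 21.6 CPM in homozygous libraries. Wild-type replicate 2 stood well above the other 9. Its log2 fold change was -0.15 (SE 0.209, 95% interval -0.59 to 0.28), and without that library it was 0.02. Rec114 shares 344 exon bases with Nptn on the opposite strand, and the strand setting of the counting was not given. The Rec114 counts may therefore include reads of Nptn, or lack reads that fell on the shared bases.

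Mei1 (chr15:82069996-82126814, plus strand), needed for break formation, was at 124.5 and 136.2 CPM in the controls and 117.5 and 124.2 CPM in the deleted libraries. It was the only one of the 10 genes whose deleted libraries were both below both controls, by a margin of under 1 CPM, and the log2 fold change was -0.11 (SE 0.111, 95% interval -0.34 to 0.12). In 23KRA, wild-type libraries held 70.3, 66.7, 79.9, 59.6 and 80.3 CPM and homozygotes 73.5, 80.1, 74.0, 74.0 and 64.8 CPM. The ranges overlapped almost wholly, with a log2 fold change of 0.04 (SE 0.112).

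Ccdc36 (chr9:108403611-108428484, minus strand), which encodes IHO1 and links the platform to the chromosome axis, was at 145.9 and 131.1 CPM in the controls and 149.9 and 135.4 CPM in the deleted libraries. The groups overlapped, with a log2 fold change of 0.04 (SE 0.112, 95% interval -0.19 to 0.27). In 23KRA, Ccdc36 was at 95.3, 124.5, 91.6, 109 and 106 CPM in wild-type and 115, 133, 124, 103 and 99.7 CPM in homozygous libraries. Homozygous replicate 2 was the highest library, and the log2 fold change was 0.13 (SE 0.107, 95% interval -0.093 to 0.35).

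Prdm9 (chr17:15543079-15564354, minus strand), the histone methyltransferase that sets hotspot positions, was the one gene with a difference below 0 in both experiments. In the deletion it was at 119 and 107 CPM in the controls and 112 and 111 CPM in the deleted libraries, both of which lay between the controls. Its log2 fold change was -0.02 (SE 0.112, 95% interval -0.25 to 0.21). In 23KRA, Prdm9 was at 188, 153, 134, 124 and 157 CPM in wild-type and 139, 160, 108, 138 and 122 CPM in homozygous libraries. The highest library was wild type and the lowest homozygous, but the ranges overlapped from 124 to 160 CPM, and the log2 fold change was -0.18 (SE 0.117, 95% interval -0.42 to 0.063).

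Dmc1 (chr15:79561497-79605109, minus strand), the meiosis-specific recombinase, was at 271 and 247 CPM in the controls and 260 and 266 CPM in the deleted libraries. The deleted libraries lay between the controls, and the log2 fold change of 0.02 (SE 0.106) had a 95% interval of -0.20 to 0.24. In 23KRA, Dmc1 was at 153, 149, 117, 132 and 160 CPM in wild-type and 146, 187, 140, 146 and 174 CPM in homozygous libraries. Homozygous replicates 2 and 5 were above every wild-type library and the other 3 within their range. For Dmc1 the log2 fold change was 0.15 (SE 0.105, 95% interval -0.064 to 0.37).

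Meiob (chr17:24804289-24839788, plus strand) and Spata22 (chr11:73329741-73346044, plus strand) encode partners that bind single-stranded DNA together. In the deletion, Meiob was at 68.9 and 76.7 CPM in the controls and 82.9 and 83.7 CPM in the deleted libraries. Spata22 was at 66.1 and 57.8 CPM in the controls and 68.5 and 70.0 CPM in the deleted libraries. For each of them both deleted libraries were above both controls, with log2 fold changes of 0.19 (SE 0.117, 95% interval -0.047 to 0.44) for Meiob and 0.16 (SE 0.122, 95% interval -0.089 to 0.41) for Spata22, and neither passed. Spata22 shares 1025 exon bases with Gm49340 on the same strand, a gene model that was not in the tables.

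In 23KRA, Meiob was at 28.9, 12.5, 19.6, 28.0 and 32.4 CPM in wild-type and 34.7, 28.8, 22.6, 17.5 and 28.5 CPM in homozygous libraries. Spata22 was at 19.4, 20.3, 8.75, 15.4 and 17.5 CPM in wild-type and 15.9, 17.5, 12.2, 17.9 and 15.4 CPM in homozygous libraries. The lowest library was wild-type replicate 2 for Meiob and wild-type replicate 3 for Spata22, the same 2 libraries that had the fewest genes detected. Wild-type replicate 2 nevertheless held the highest Spata22 value, 20.3 CPM, and the part of gene detection in these levels was not tested. The log2 fold changes were 0.12 (SE 0.237, 95% interval -0.37 to 0.61) and -0.04 (SE 0.236, 95% interval -0.54 to 0.45), the widest of the 10 genes together with that of Mei4. Without those 2 libraries, a choice made after the data were seen, Meiob was at -0.17.

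Tex15 (chr8:33516738-33585582, plus strand), which is needed for loading of DMC1 onto breaks and also acts in transposon silencing, was the most abundant of the 10 genes by CPM. It was at 831 and 670 CPM in the controls and 759 and 843 CPM in the deleted libraries, so the groups overlapped, with a log2 fold change of 0.09 (SE 0.113, 95% interval -0.14 to 0.33). In 23KRA, Tex15 was at 1211, 1430, 1441, 1577 and 1273 CPM in wild-type and 1297, 1809, 1406, 1616 and 1483 CPM in homozygous libraries. Homozygous replicates 2 and 4 were above every wild-type library. The log2 fold change of 0.14 (SE 0.084, 95% interval -0.040 to 0.31) had the smallest unadjusted p of the 10 genes there, 0.123, and an edgeR adjusted p of 1.00.

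**Figure D1:**
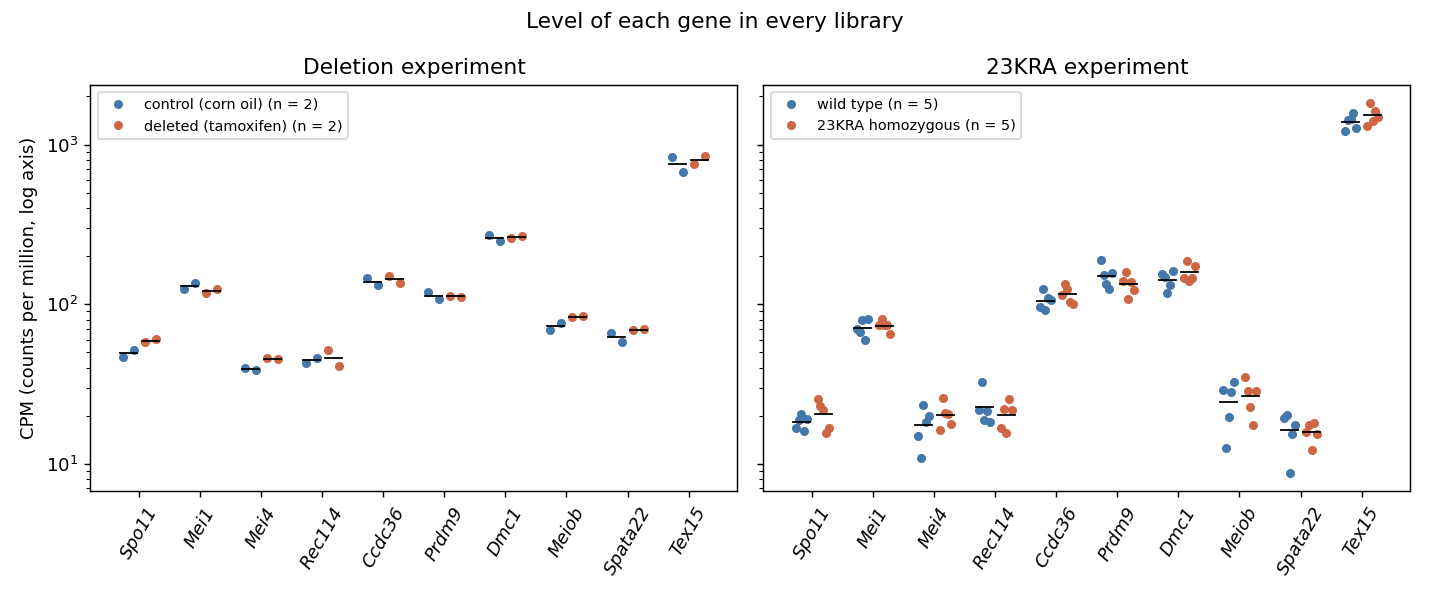
Level of each of the 10 genes in every library, as CPM on a log axis, with 1 point per library and a bar at each group mean; the deletion experiment is on the left and 23KRA on the right. Tex15 lies far above the other 9 genes in every library of both experiments, and the points of the 2 groups interleave for every gene in 23KRA.

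In the deletion experiment, 8 of the 10 differences were above 0 and 2 below (Mei1 and Prdm9), with a median of 0.073 against -0.0044 over all genes tested. Leaving out control replicate 2 left 5 of the 10 above 0, and leaving out deleted replicate 1 left 6. The 5 break genes had a median of 0.051 and the 4 strand exchange genes 0.13. Groups that did not overlap were found with the deleted libraries higher for 4 of the 10 genes (Spo11, Mei4, Meiob and Spata22), where the share over all genes tested was 15.6%. They were found with the deleted libraries lower for 1 (Mei1), where the share was 17.5%. The median moved to 0.131 without control replicate 1, to 0.0174 without control replicate 2 and to 0.129 without deleted replicate 2.

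In 23KRA, 7 differences were above 0 and 3 below (Prdm9, Rec114 and Spata22), with a median of 0.13 against 0.0034 over all genes tested. The median was 0.0474 without homozygous replicate 1, 0.0666 without wild-type replicate 2, 0.0686 without homozygous replicate 2 and 0.0831 without wild-type replicate 3. No gene had groups that did not overlap, where the share over all genes tested was 0.436% with homozygotes higher and 0.274% with homozygotes lower. All 10 intervals held 0 in 23KRA and 9 of 10 did in the deletion, where that of Spo11 did not. An interval without 0 restates an unadjusted edgeR p under 0.05, which 793 of the 16725 genes tested had in the deletion. The widest bounds over the 10 genes ran from -0.34 to 0.52 in the deletion and from -0.59 to 0.68 in 23KRA, each bound being that of the gene with the lowest or highest one. Side by side, 6 genes were above 0 in both experiments, 1 below 0 in both (Prdm9), and 3 of opposite sign (Mei1, Rec114 and Spata22). Whether the effects differ between the experiments was not tested.

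**Figure D2:**
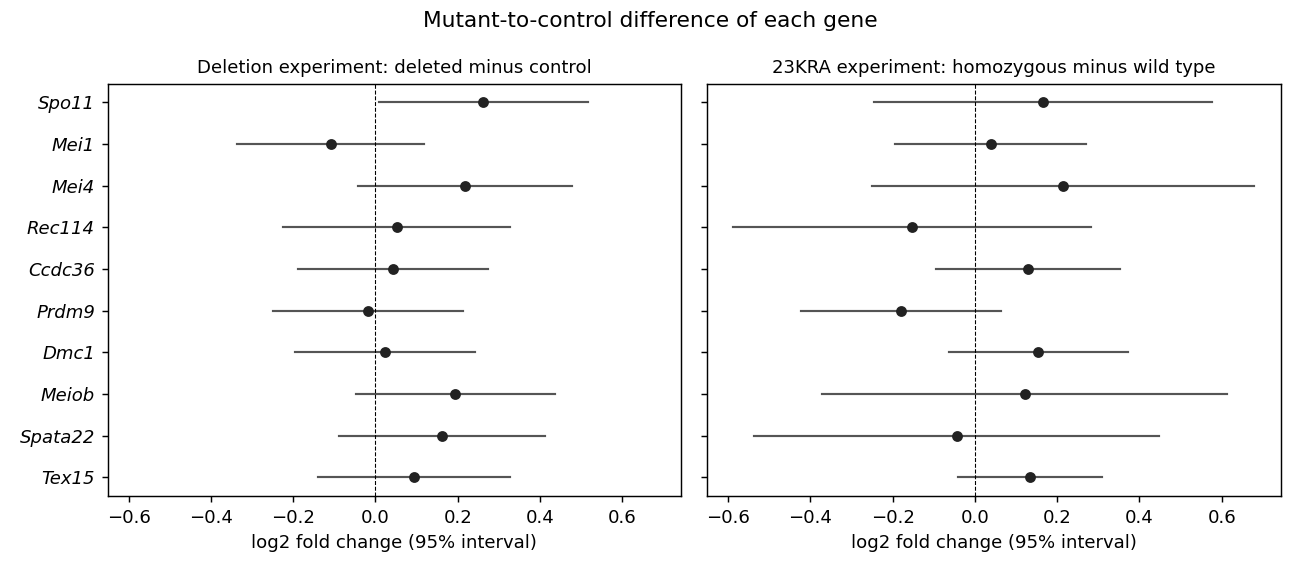
Log2 fold change of each gene, mutant minus control, as a point with its 95% interval from the edgeR fit, for the deletion (left) and 23KRA (right). The Spo11 interval in the deletion starts just above 0 at 0.0077, and every other interval crosses the dashed line at 0.

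**Figure D3:**
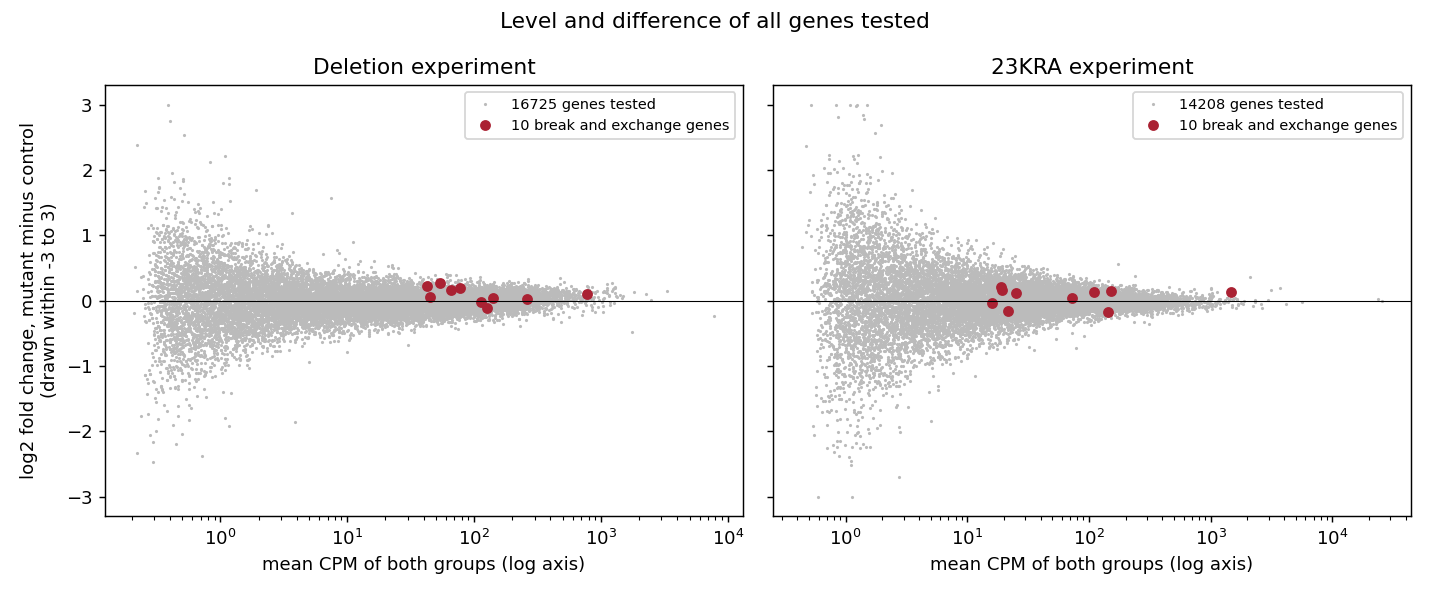
Log2 fold change against mean CPM of both groups on a log axis for every gene tested (grey) and the 10 genes (red), for the deletion (16725 genes) and 23KRA (14208 genes). The red points, from -0.11 to 0.26 on the left and -0.18 to 0.22 on the right, lie inside the cloud of genes of like abundance.

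Per kilobase of merged exons, which allows levels of different genes to be compared, Dmc1 was highest in the deletion controls at 106 ± 6.97 CPM per kb (SD, n = 2), above Tex15 at 78.0 ± 11.9. Spata22 (48.6) and Ccdc36 (47.9) followed and overlapped, then Meiob (40.4) and Rec114 (34.7). Mei1 (27.5) and Prdm9 (26.3) overlapped each other, and Spo11 and Mei4 were lowest, at 12.6 and 9.52 CPM per kb.

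In the 23KRA wild types, Tex15 came first at 144 ± 15.1 CPM per kb (SD, n = 5) and Dmc1 next at 58.5 ± 7.28. Ccdc36 (36.4) and Prdm9 (35.1) overlapped, as did each neighbouring pair among Rec114 (17.6), Mei1 (15.1), Meiob (13.5) and Spata22 (12.8). Spo11 (4.67) and Mei4 (4.24) were again lowest and overlapped each other. The kits and the normalization differ between the experiments, so the 2 orders are given beside each other only. With the shorter lengths of GENCODE's basic transcripts, chosen after the data were seen, Rec114 moved from place 6 to place 3 in the deletion controls (50.3 CPM per kb), and Spo11 read 28.0 CPM per kb there, above Mei1. There the ranges of Spo11, Prdm9 and Mei1 overlapped as neighbours, and Spo11 stood at place 8 in place of 9. In the 23KRA wild types, Spo11 read 10.4 CPM per kb with the basic lengths. Its range then lay above that of Mei4 and overlapped that of Spata22. Mei4 was last under both lengths in both control groups.

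**Figure D4:**
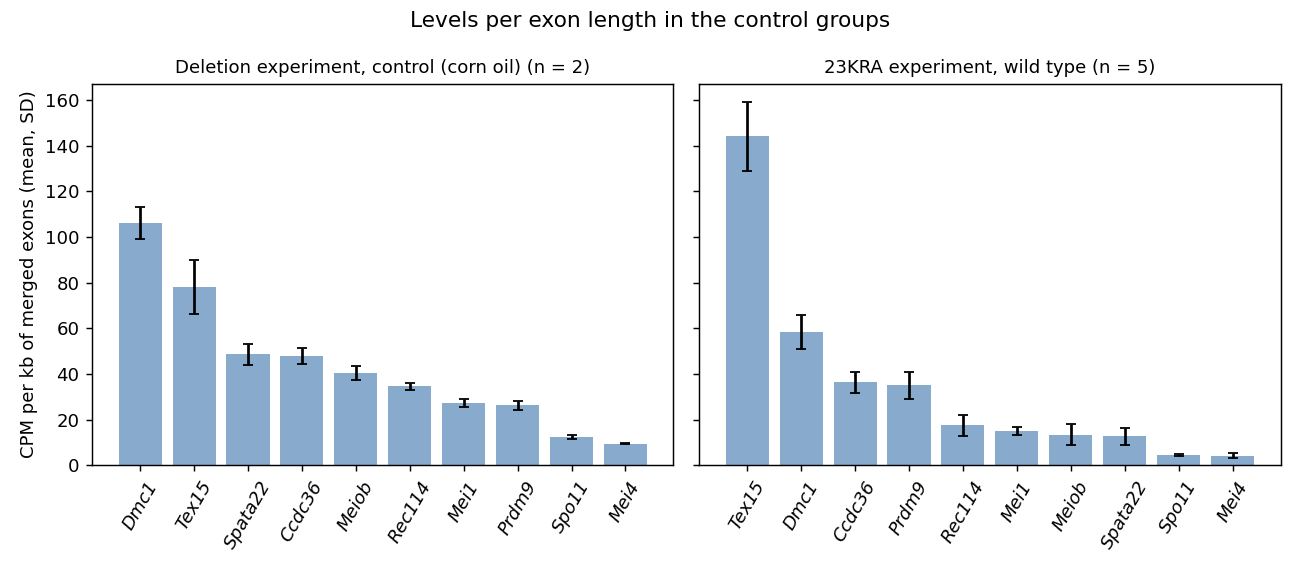
Mean CPM per kilobase of merged exons of each gene in the deletion controls (n = 2, left) and the 23KRA wild types (n = 5, right), ordered by level, with SD as error bars; the axis starts at 0. Dmc1 leads at 106 on the left, Tex15 at 144 on the right, and Mei4 is last in both.

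Summed over the 10 genes, the level was 1659 ± 137 CPM in the deletion controls and 1742 ± 52.7 CPM in the deleted libraries (SD, n = 2 each), with overlapping ranges of 1562 to 1756 and 1705 to 1780 CPM. In 23KRA it was 1955 ± 110 CPM in wild types and 2106 ± 240 CPM in homozygotes (SD, n = 5 each), with ranges of 1820 to 2100 and 1880 to 2486 CPM. Tex15 made up 45.2% of the sum in the deletion controls and 70.9% in the 23KRA wild types, so the sums mostly follow that gene. Without it, the sums ran from 892 to 925 CPM in the deletion controls, 937 to 946 CPM in the deleted libraries, 513 to 611 CPM in the wild types and 539 to 677 CPM in the homozygotes.

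Pairs of the 10 genes had low correlations from library to library. Over the 10 libraries of 23KRA, the 45 pairs of genes had a median Pearson r of 0.091 in log2 CPM, from -0.67 (Meiob and Rec114) to 0.65 (Dmc1 and Spata22), with 28 pairs above 0. These are descriptions over 10 libraries that differ in depth, and no batch is given for them. Homozygous replicate 2 was the exception, with all 10 of the 10 genes above their means and a median deviation of 0.25 in log2 CPM. This was not particular to the 10 genes. Of the lists given below, its sums were the highest in 23KRA for meiotic entry (6841 CPM) and for genes acting with the break machinery or PRDM9 (4293 CPM). For end resection its sum, 1547 CPM, was below the 1596 CPM of homozygous replicate 3. Its spermatid (269 CPM) and late spermatocyte (311 CPM) sums were the lowest. Wild-type replicates 3 and 4 each had 3 of 10 above their means. In the deletion experiment, control replicate 2 had 2 of 10 above, with a median deviation of -0.074, and the deleted libraries had 7 and 6 of 10.

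**Figure D5:**
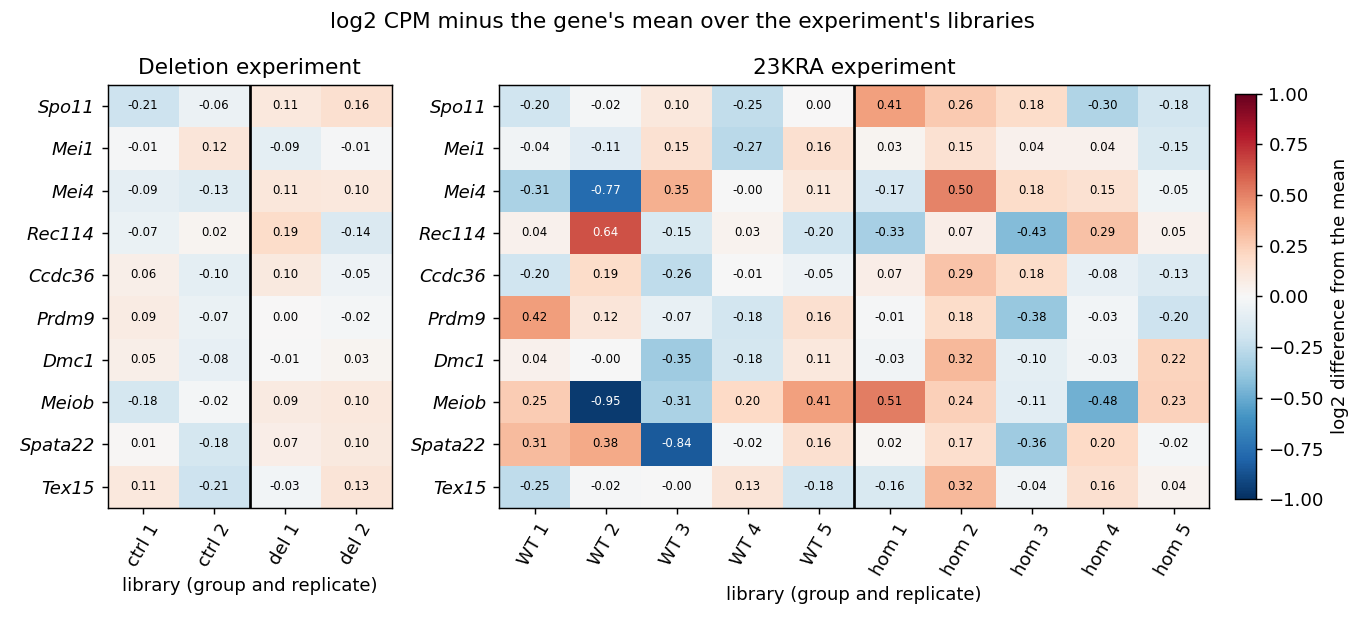
Log2 CPM of each gene in each library minus the gene's mean over that experiment's libraries, as colour and number, with a black line between control and mutant groups. The homozygous replicate 2 column is above 0 for all 10 genes, and wild-type replicate 2 holds both the lowest Meiob and the highest Rec114 value.

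Genes most like the mean profile of the 10 were sought among 8928 genes of at least 10 CPM in 23KRA. The closest were Lrba (Pearson r 0.95, Spearman rho 0.77), Mturn (0.90, 0.85), Ralgapa2 (0.90, 0.62), Ddx43 (0.89, 0.94) and Fbxl17 (0.89, 0.84), each over 10 libraries. Without the 2 libraries farthest from the median of the profile, homozygous replicate 2 and wild-type replicate 3, r was 0.77 for Lrba, 0.60 for Mturn, 0.29 for Ralgapa2, 0.88 for Ddx43 and 0.84 for Fbxl17. The value for Ralgapa2 thus rested on those libraries. These 5 were picked as the highest of all candidates, so the values are a description. The profile itself had r = -0.11 with the number of genes detected and -0.070 with total counts.

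Around the 10 genes, the other steps of the pathway were measured by lists of related genes, and no gene reported from them passed in either experiment. Of the genes acting with the break machinery or PRDM9, 7 of 8 listed were tested. In the deletion 4 were above 0 and 3 below (median 0.0016), and in 23KRA also 4 and 3 (median 0.015). Hells, a remodeller that works with PRDM9, was at 1185 ± 150 CPM in the controls and 1356 ± 143 CPM in the deleted libraries (SD, n = 2 each), which is 0.19 on the log2 scale (SE 0.112). Leaving out control replicate 1 gave 0.341, deleted replicate 2 gave 0.297, deleted replicate 1 gave 0.0861 and control replicate 2 gave 0.0707. In 23KRA, Hells was at 1881 ± 147 and 1811 ± 139 CPM (SD, n = 5 each), or -0.06 on the log2 scale. Ewsr1, which binds PRDM9, differed by 0.0016 in the deletion. Atm, the kinase that limits break number, differed by -0.02 in 23KRA.

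For end resection and replication protein A, 9 of 9 genes were tested, 8 above 0 and 1 below in the deletion (median 0.062) and 6 and 3 in 23KRA (median 0.015). Rbbp8, which encodes the nuclease cofactor CTIP, differed by 0.17 (SE 0.113) in the deletion and 0.01 (SE 0.089) in 23KRA. Its deletion value was 0.331 without control replicate 1 and 0.0415 without control replicate 2. Rpa2, a subunit of replication protein A, differed by 0.02 in the deletion, and Rad50, of the MRN complex, by -0.04 in 23KRA.

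Among genes that assist strand exchange, Sfr1 and Swi5, whose products form a cofactor of DMC1, differed by 0.13 (SE 0.105) and 0.02 (SE 0.105) in the deletion. Brca2, whose product helps load DMC1 onto single-stranded DNA, differed by -0.02 (SE 0.072) in 23KRA, and Brca1, which acts in repair of double-strand breaks, by -0.0036 (SE 0.071). None of these 4 genes passed.

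Of the meiotic entry genes, 9 of 10 were tested, 7 above 0 and 2 below in the deletion (median 0.074) and 6 and 3 in 23KRA (median 0.025). Dazl, an RNA-binding regulator of germ cell genes, was at 3126 ± 306 CPM in the deletion controls and 3468 ± 181 CPM in the deleted libraries (SD, n = 2 each). Sycp1, a strut of the synaptonemal complex, differed by 0.07 in the deletion and 0.02 in 23KRA, and the cohesin gene Smc1b by 0.03 in 23KRA. In the deletion, the median of the 10 genes and that of the meiotic entry list were 0.073 and 0.074. In 23KRA those medians were 0.13 and 0.025.

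The share of cells at each stage can set the level of these genes, and in bulk RNA fewer cells of a type and less RNA per cell cannot be told apart. The 9 markers of differentiating spermatogonia summed to 2161 to 2223 CPM in the deletion controls and 2248 to 2370 CPM in the deleted libraries, which did not overlap, and to 2057 to 2229 and 1943 to 2231 CPM in 23KRA. The 12 spermatid markers were all below 0 in the deletion, summing to 3517 to 3813 CPM in controls and 3008 to 3458 CPM in deleted libraries (median -0.21), and all below 0 in 23KRA, from 334 to 1219 and 269 to 1223 CPM (median -0.33). None of those 12 passed. The 11 late spermatocyte markers summed to 1374 to 1391 and 1225 to 1318 CPM in the deletion and to 334 to 574 and 311 to 596 CPM in 23KRA. In the deletion, the late-stage sums were lower in the libraries where 8 of the 10 recombination genes had differences above 0 (5 without control replicate 2), and their part in these differences was not tested.

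Markers of other testis cells were low beside these. The 12 undifferentiated spermatogonial markers summed to 156 to 171 and 159 to 176 CPM in the deletion, and to 132 to 178 and 133 to 173 CPM in 23KRA. The 10 Sertoli cell markers summed to 328 to 350 and 340 to 382 CPM in the deletion, and to 129 to 167 and 125 to 178 CPM in 23KRA. The 8 Leydig cell markers summed to 21.8 to 25.4 and 17.0 to 18.0 CPM in the deletion, and to 13.6 to 23.3 and 11.6 to 19.2 CPM in 23KRA. Of these markers in 23KRA, Insl3 was at 0 in 6 libraries, while Star was detected in every library at 10.2 to 14.0 CPM. Cyp17a1, a steroid-synthesis enzyme of Leydig cells, was the 1 gene of all these lists that passed, falling in the deletion from a mean of 6.07 to 1.66 CPM (log2 fold change -1.86, SE 0.264, edgeR adjusted p = 0.00315). The 9 macrophage and leukocyte markers summed to 51.3 to 61.0 and 47.9 to 94.8 CPM in the deletion, and to 9.12 to 144 and 17.4 to 37.6 CPM in 23KRA. The 144 CPM was in wild-type replicate 3. The part of these other testis cells in the levels of the 10 genes was not tested.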

How the data were processed

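Bulk RNA libraries were analysed, 10 from the 23KRA experiment and 4 from the deletion. The values deposited by the authors are raw counts of reads per gene, with no normalization. The labels give a SMART-Seq mRNA kit with 7 and then 11 PCR cycles for the deletion and a stranded total RNA kit with 5 and then 16 cycles for 23KRA, so the experiments were fitted apart. The labels' molecule field nevertheless gives polyA RNA for 23KRA, so which RNA those counts sample is not settled. STAR 2.5.3, Trim Galore 0.4.3, Subread 1.5.0, featureCounts, SAMtools 1.4.1 and the build mm10 are named per the submitters' processing notes. No annotation, strand setting or handling of multi-mapping reads is given in the sources used here.

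Genes were kept by edgeR's filterByExpr and scaled by TMM factors. Mutants were compared with controls by a two-sided quasi-likelihood test in edgeR 4.0.16 (R 4.3.3) with Benjamini-Hochberg adjustment at 0.05 over all genes tested. CPM uses the scaled library sizes, and log2 CPM a prior count of 2. The test was tested on simulated data first. Counts behind the 10 genes ran from 1121 to 24176 per library in the deletion and from 136 to 27435 in 23KRA, and amplified reads are not independent molecules. Gene positions and exon lengths are from GENCODE M21 on GRCm38, the assembly also called mm10, and promoters from RefSeq.

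The 10 genes and the lists were chosen with earlier results of these data known. Named genes are the 10 genes, Cbx2, up to 4 genes of each partner list that passed or else the 2 of highest mean CPM, and the 5 genes most like the mean profile. Kit, Stra8, Insl3, Star and Cyp17a1 were named as markers after their values were seen. Ankrd31 and Meiosin were not analysed here, and 1 list of partner genes, that of genes assisting strand exchange, is not reported as a whole. Alternatives were DESeq2 1.42.0 and its size factors, upper quartile scaling, limma-voom (limma 3.58.1), no filter, a filter at 5 CPM, a replicate block and leaving out each library. Leaving out the 2 libraries with the fewest genes detected, and basic transcript lengths, were chosen after seeing the data.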

Additional observations from a re-analysis of the deposited data

Results flagged for a closer look

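Rec114 in wild-type replicate 2 of the 23KRA experiment stood at 32.5 CPM, far from the other wild-type libraries, of which the nearest was at 21.6 CPM. The gap was 0.767 of the group's range, above the 95% critical value of 0.71 for 5 samples. Of 20 groups checked (each of the 10 genes in both 23KRA groups), 1 passed that value, and chance gives about 1 in 20.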

How the results depend on the processing

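None of the 10 genes passed under any alternative run. The number of all genes called in the deletion was 2, and it was 8 without a filter, 1 with a filter at 5 CPM, 1 with DESeq2, 1 with limma-voom, 62 with a replicate block, and from 2 to 73 without each library in turn (73 without deleted replicate 2, 11 without control replicate 1), where a lone library is assumed to vary like the other group. In 23KRA it was 0, and 2 with a replicate block. The labels give no pairing of same-numbered samples beyond the number. In 23KRA the late spermatocyte markers summed to 503, 334, 452, 426 and 574 CPM in wild-type replicates 1 to 5. In homozygous replicates 1 to 5 they summed to 467, 311, 395, 420 and 596 CPM. Nothing further is known here of how the same-numbered samples were prepared. Their deviations correlated at 0.161 in the deletion and from -0.011 to 0.22 in 23KRA, where 3 of 5 samples correlated best with their own number. With the replicate block, the smallest adjusted p of the 10 genes was 0.279 (Spo11, deletion) and 0.533 (Tex15, 23KRA). The median of the 10 genes ran from 0.0174 to 0.131 in the deletion and from 0.0474 to 0.14 in 23KRA without each library. No scaling moved the median of all genes by more than 0.0076.

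Some log2 fold changes changed sign between runs, and the cause was not tested. Not all of these were near 0 in the main fit, where in 23KRA Meiob was at 0.122 and Rec114 at -0.152. In the deletion, Ewsr1 was -0.00202 without a filter and -0.000218 at 5 CPM. In 23KRA, Rbbp8 was -0.00688 with limma-voom. Leaving out wild-type replicates 2 and 3, which had the fewest genes detected, Meiob was -0.17, Hells 0.0202, Atm 0.0335, Rbbp8 -0.003 and Brca1 0.0264. Without each library in turn, the deletion ranges were -0.0425 to 0.102 for Dmc1, -0.12 to 0.206 for Rec114, -0.094 to 0.0708 for Prdm9, -0.0326 to 0.132 for Ccdc36, -0.0535 to 0.269 for Tex15, -0.0349 to 0.0401 for Ewsr1, -0.0426 to 0.0783 for Swi5 and -0.1 to 0.13 for Rpa2. Those in 23KRA were -0.0411 to 0.247 for Meiob, -0.202 to 0.0474 for Spata22, -0.25 to 0.017 for Rec114, -0.0191 to 0.0849 for Mei1, -0.0498 to 0.0185 for Brca1, -0.0706 to 0.00772 for Brca2, -0.0267 to 0.0699 for Rbbp8, -0.056 to 0.00568 for Atm, -0.0347 to 0.0524 for Smc1b and -0.0306 to 0.0785 for Sycp1. With 2 animals a group in the deletion, and counts down to 136 in 23KRA, small differences could not be resolved.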
